A study of Drosophila melanogaster with 30 samples.

Results

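The anterior fragment of the Drosophila melanogaster prothoracic leg disc was compared 24 h after cutting with the same region of uncut discs cultured as long. Of the 30 arrays, 6 belong to this comparison: 3 of cut 24 h anterior samples and 3 of uncut 24 h anterior samples. Of the 18952 probe sets on the array, 1480 are listed in the table of cut comparisons that the authors deposited. These are the members described here. They name 1341 genes, and 83 of the listed probe sets carry no gene name. All groups shared their genotype: w/Y, with AyGAL4 and UAS-GFP together over a + chromosome, and with the driver puc[E69-I]-GAL4 over UAS-flp. The discs were taken from male larvae aged 100 h. In this genotype GFP marks cells in which the puc driver has been active, and their descendants. Each cut disc gave an anterior 1/4 fragment that was cultured for 24 h in the abdomen of an adult female, after which its GFP-positive region was isolated. From uncut discs the corresponding region was taken, so cutting cannot be told apart from the choice of cells by GFP. The posterior 3/4 fragments at 24 h, the anterior fragments at 12 h and the uncultured anterior regions (0 h), each with 3 samples per group, served as context.

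A leg disc is a sac of larval epithelium from which the adult leg forms. A cut disc closes its wound, divides and can replace the missing part when it is cultured in an adult abdomen. Wounding activates JNK signalling, whose phosphatase gene puc drives the reporter used here. Unpaired ligands activate the JAK/STAT pathway, and Ilp8 is a relaxin-like hormone by which damaged discs delay the larva's development.

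Values are log2 signals that the authors centred on each probe set's mean over all 30 arrays, so 0 is that mean and levels cannot be set against those of another gene. Whether the tissue was leg disc could not be read from levels for the same reason. Of the disc genes looked for, Dll, dac, hth, tsh and Antp were not listed, whereas ap, B-H2 and Scr were. RNA-quality and hybridization measures differed between the groups. The 5' minus 3' difference of the actin control was -0.16, -0.05 and -0.25 in the cut samples, against -0.97, -0.59 and -0.72 in the uncut samples. The 5' minus 3' index is the mean of this difference over the actin, GAPDH and eIF-4a controls. It was 0.02, -0.08 and -0.11 in the cut samples, against -0.72, -0.15 and -0.47 in the uncut samples. The hybridization controls averaged 0.09 ± 0.03 in the cut samples and -0.41 ± 0.35 in the uncut samples (SD, n = 3 each), with the lowest value, -0.82, in uncut replicate 1. Cut replicate 3 correlated with the uncut arrays at up to 0.30 over all probe sets, while cut replicates 1 and 2 reached 0.04 and 0.02. The part of these differences in the results was not tested beyond the values given beside them below.

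Across all 18952 probe sets, 1628 passed an adjusted p of 0.05 (8.59%), 1060 of them higher (5.59%) and 568 lower (3.00%) in cut samples. Tests are limma's moderated tests with Benjamini-Hochberg adjustment over all probe sets. Among the 1341 named listed genes, 532 rose and 300 fell, of which 79 rose and 57 fell by at least 2-fold (0.971% of all probe sets passed both limits). A gene entered the authors' table because it differed in an overall test that includes this contrast, so these counts are no support for a change. The same limit holds for the counts of listed members of each gene list below. Those counts stand beside 532 rises and 300 falls among the 1341 named listed genes. The called count over all probe sets was 841 without cut replicate 2 and 1062 without cut replicate 1. The higher calls numbered 555 without cut replicate 2 and 706 without uncut replicate 2, and the lower calls 288 and 286 without cut replicates 1 and 2. With 3 samples in each group, the smallest two-sided p an exact permutation test allows is 0.1.

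**Figure D1:**
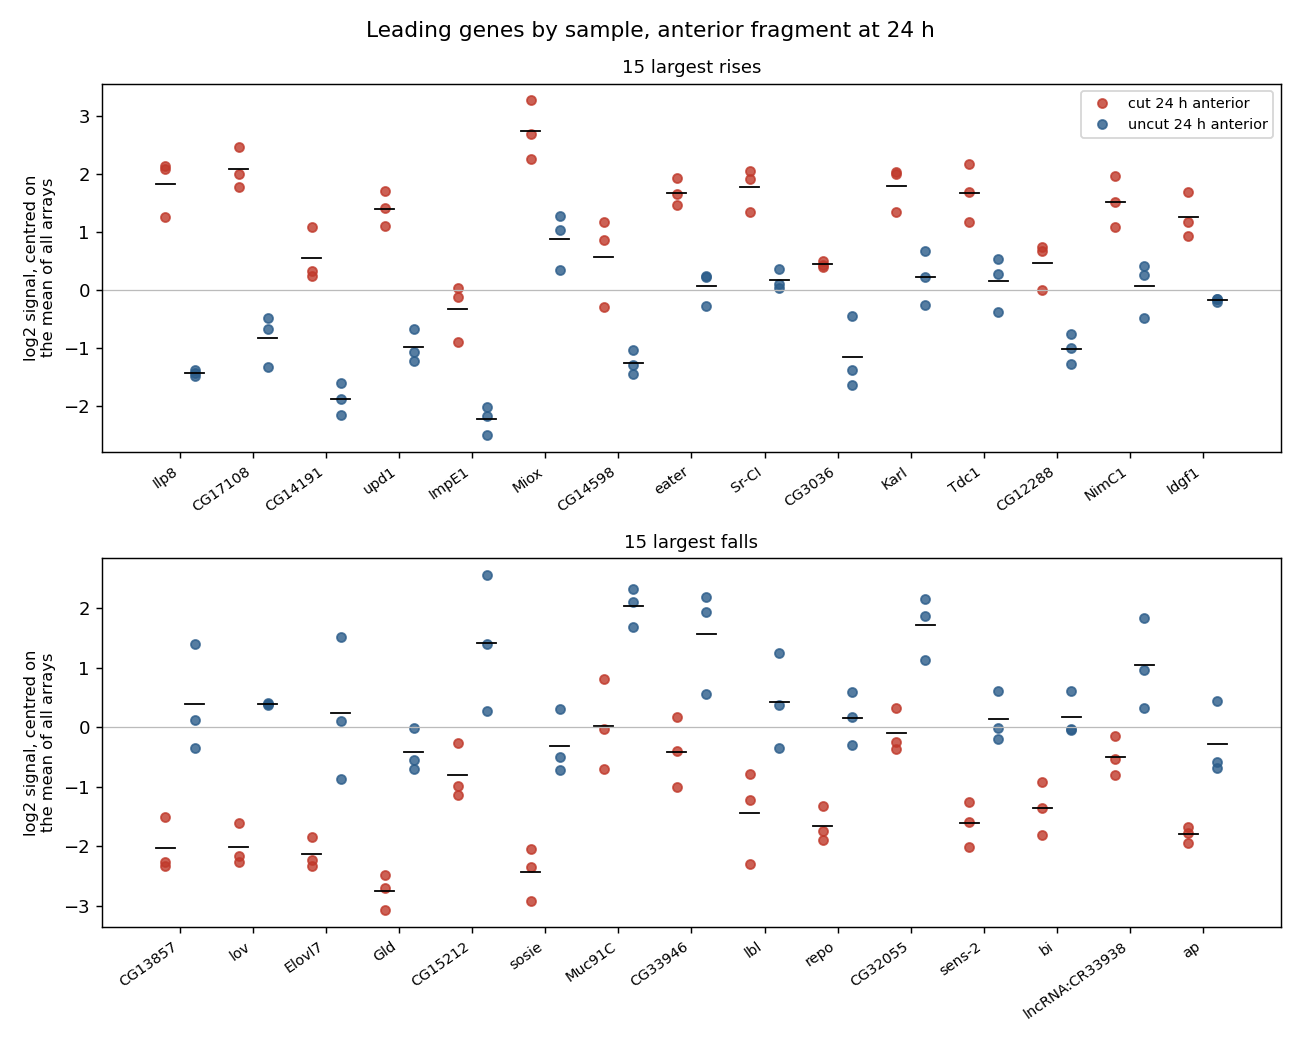
Centred log2 signal of the 15 genes with the largest rise and the 15 with the largest fall, with a point for each cut and each uncut 24 h anterior sample and a line at the group mean. In each of these genes the lowest and highest samples of the groups do not overlap. The genes were chosen by their change between these same samples, so this is a description and no support.

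Ilp8 showed the largest rise. Its centred log2 signal was 2.09, 2.13 and 1.26 in the cut samples, against -1.48, -1.44 and -1.38 in the uncut samples. The log2 fold change was 3.26 ± 0.22 (SE; adjusted p = 6.4e-10), which is 9.6-fold higher. Uncultured anterior regions gave -1.31, -1.31 and -0.54, each above the uncut cultured samples and below the cut ones. The ligand gene upd1 measured 1.40, 1.70 and 1.11 in the cut samples, against -1.23, -1.08 and -0.67 in the uncut samples. All cut samples exceeded all uncut samples, with a log2 fold change of 2.40 ± 0.19 (SE; adjusted p = 1.1e-08), or 5.27-fold. Of the 6 listed members of the JAK/STAT list, upd1 was the only gene to pass, and the median log2 fold change of the list was 0.12, against 0.02 over all probe sets. The other Unpaired ligand listed, upd3, had a log2 fold change of 0.12 (adjusted p = 0.59), the receptor-associated kinase hop -0.07 (adjusted p = 0.802) and the phosphatase Ptp61F 0.34 (adjusted p = 0.128).

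Among 6 listed members of the JNK list, 5 rose and 1 fell, with a median of 0.92. Pvf1, a PDGF/VEGF-like ligand, measured 0.64, 0.52 and 0.17 in the cut samples, against -0.56, -0.94 and -1.34 in the uncut samples, and its log2 fold change was 1.39 ± 0.21 (SE; adjusted p = 0.00013). Its receptor gene Pvr rose by 0.67 (adjusted p = 0.0064). Mmp1, a matrix metalloproteinase, measured 0.54, 0.66 and 0.14 in the cut samples, against -0.49, -0.93 and -0.61 in the uncut samples, a log2 fold change of 1.12 ± 0.25 (SE; adjusted p = 0.0053). The ETS transcription factor gene Ets21C measured 0.47, 0.58 and 0.65 in the cut samples, against -0.04, -0.63 and -0.84 in the uncut samples, a log2 fold change of 1.07 ± 0.23 (SE; adjusted p = 0.0034). In both genes every cut sample was above every uncut sample. The secreted protease homolog scaf also rose, by 0.77 (adjusted p = 0.0154). The TNF ligand gene egr went the other way, with -1.24, -0.73 and -0.77 in the cut samples, against 0.04, -0.02 and -0.07 in the uncut samples and a log2 fold change of -0.90 ± 0.16 (SE; adjusted p = 0.00075). The list of wound, matrix and growth-delay genes had 8 listed members, of which Ilp8, Mmp1 and rgn rose and Duox, which encodes a hydrogen peroxide-producing oxidase, fell. The call of Duox was lost without cut replicate 1 or either of uncut replicates 1 and 3. It was also lost with the hybridization controls as a covariate (adjusted p = 0.199). The call of rgn was lost without cut or uncut replicate 2.

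Markers of hemocytes, the blood cells of the fly, were higher in cut samples. Of 7 listed members of the list, 6 rose and ush did not pass, with a median log2 fold change of 1.26. The phagocytosis receptor gene eater measured 1.92, 1.46 and 1.65 in the cut samples, against 0.23, -0.28 and 0.24 in the uncut samples, a log2 fold change of 1.62 ± 0.30 (SE; adjusted p = 0.00077). The scavenger receptor gene Sr-CI measured 1.91, 1.34 and 2.05 in the cut samples, against 0.37, 0.02 and 0.11 in the uncut samples, a log2 fold change of 1.60 ± 0.26 (SE; adjusted p = 0.0002). NimC1, another phagocytosis receptor, measured 1.08, 1.52 and 1.96 in the cut samples, against 0.41, -0.48 and 0.26 in the uncut samples, a log2 fold change of 1.46 ± 0.28 (SE; adjusted p = 0.001). In these genes the groups did not overlap. Hml, which encodes hemolectin, rose by 1.26 (adjusted p = 0.016), NimC4 by 1.12 (adjusted p = 0.0222) and NimB5 by 0.71 (adjusted p = 0.0147). The mean level of the 7 members ranged over 1.12 to 1.49 in cut 24 h samples, against -0.13 to 0.38 in uncut 24 h samples, and lay between -1.10 and -0.89 in uncultured regions. The call of Hml was lost without cut replicate 1 or 3 or uncut replicate 2. The count of rises was 3 without uncut replicate 2, and 3 with the hybridization controls as a covariate. In bulk samples more cells of a type and more RNA per cell cannot be told apart.

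Markers of other cells that the fragment could hold moved less uniformly. Of 6 listed myoblast and muscle genes, bt (a giant muscle kinase) rose by 0.94 (adjusted p = 0.0031), while twi and Mef2, which define myoblasts and muscle, had log2 fold changes of 0.06 and -0.43 (adjusted p = 0.883 and 0.0584). No gene of the list of host female and fat body markers was a member. Yp1, a yolk protein gene named in the culture table, had a log2 fold change of 0.04 (adjusted p = 0.984). Of 8 neuron and glia genes, insc rose and repo, Appl and pon fell. The call of pon was lost without replicate 1 or 2 of either group. That of insc was lost with the hybridization controls as a covariate (adjusted p = 0.073). The glial transcription factor gene repo measured -1.33, -1.90 and -1.75 in the cut samples, against 0.17, -0.31 and 0.60 in the uncut samples, a log2 fold change of -1.81 ± 0.26 (SE; adjusted p = 7.5e-05).

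Listed genes for the respiratory chain, mitochondrial ribosomes, mitochondrial import and the proteasome were mostly higher in cut samples. These 4 lists were chosen after the values were seen, as was that of cytosolic ribosomal proteins. Of all probe sets 5.59% were called higher, and of the 1341 named listed genes 532 rose. The counts below are therefore a description and no support for a change. All 32 listed respiratory chain and ATP synthase genes rose, with log2 fold changes between 0.41 and 1.37 and a median of 0.67. The electron carrier gene Cyt-c-p measured 0.32, 0.45 and 0.16 in the cut samples, against -1.09, -1.11 and -0.97 in the uncut samples, a log2 fold change of 1.37 ± 0.10 (SE; adjusted p = 4.4e-09). The cytochrome oxidase subunit gene COX8 measured 0.24, 0.33 and 0.05 in the cut samples, against -0.82, -0.79 and -0.77 in the uncut samples, a log2 fold change of 1.00 ± 0.10 (SE; adjusted p = 5.3e-07). Of 26 mitochondrial ribosomal protein genes 25 rose, with mRpS33 highest at 1.09, and all 5 listed Tim and Tom import genes rose. Of 12 proteasome genes 11 rose (median 0.52), a count of 7 without cut replicate 2.

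The same direction held for nucleolar and replication genes. Of 19 ribosome biogenesis genes 15 rose and none fell, with a median of 0.67 and a count of 9 without cut replicate 2. NHP2, a component of the pseudouridylation particles, measured 0.41, 0.58 and 0.17 in the cut samples, against -0.60, -0.88 and -0.83 in the uncut samples, a log2 fold change of 1.15 ± 0.13 (SE; adjusted p = 6.9e-06). Of 7 DNA replication and cell cycle genes 6 rose, among them the sliding clamp gene PCNA by 0.68 (adjusted p = 0.00084), the helicase subunit gene Mcm7 by 0.77 (adjusted p = 0.0021) and the licensing factor gene dup by 0.87 (adjusted p = 0.00042). Among 14 cytosolic ribosomal protein genes, 3 rose and 1 fell, with a median of 0.22, and 1 rose without cut replicate 2.

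For the respiratory chain, mitochondrial ribosomal, import, proteasome, ribosome biogenesis and DNA replication lists, though not for cytosolic ribosomal proteins, the uncut 24 h samples were the lowest of the anterior samples. The mean of the 32 respiratory chain members was 0.06 to 0.20 in cut 24 h samples, against -0.59 to -0.54 in uncut 24 h samples. Uncultured regions gave 0.28 to 0.50, cut 12 h samples -0.09 to 0.14 and uncut 12 h samples -0.19 to 0.00. The 26 mitochondrial ribosomal members ranged over -0.01 to 0.19 in cut 24 h samples, against -0.52 in each uncut 24 h sample. The uncut 24 h arrays also had the lowest 5' minus 3' actin differences. Uncultured regions had the highest actin differences of the anterior samples, at 0.29, 0.92 and 1.78. By the index this order did not hold. Uncultured replicate 1, at 0.002, lay below uncut 12 h replicates 1 and 3, at 0.18 and 0.13. The part of RNA quality in the order of these groups was not tested. With the 5' minus 3' index as a covariate all 32 respiratory chain genes remained called as higher, and with the hybridization controls 29 were. Both measures differ between the compared groups, so the fits cannot separate RNA quality or hybridization from cutting.

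**Figure D2:**
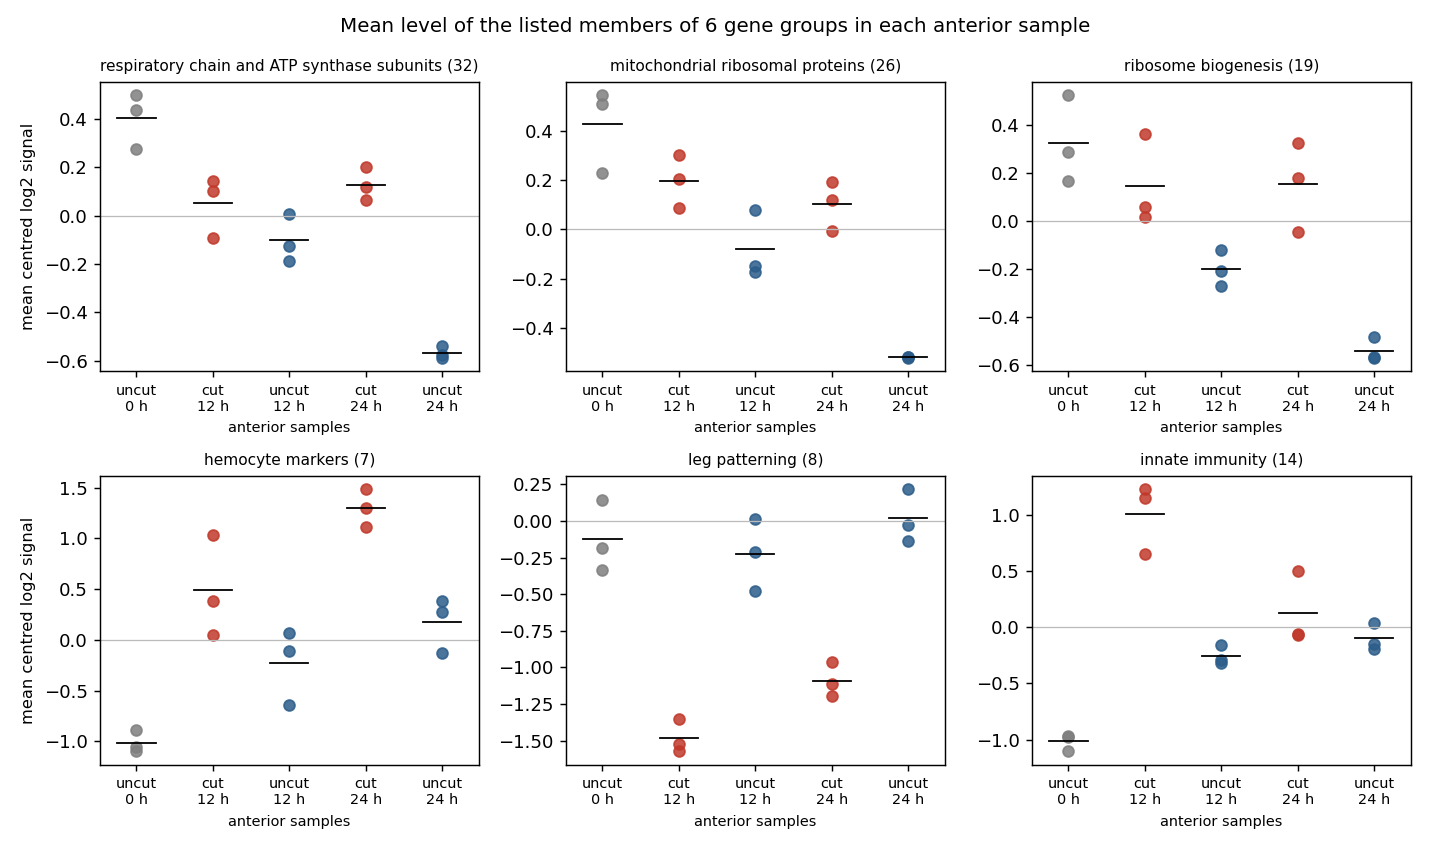
Mean centred log2 signal over the listed members of 6 gene groups in each anterior sample, with a point per sample and a line at the group mean. For the respiratory chain, mitochondrial ribosomal and ribosome biogenesis genes the uncut 24 h samples lie below all others, and for the leg patterning genes both cut groups lie below the uncut groups.

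Leg patterning genes were lower in cut samples. Of 8 listed members 5 fell and none rose, with a median log2 fold change of -1.35. The BTB-domain gene lov measured -1.61, -2.26 and -2.16 in the cut samples, against 0.40, 0.41 and 0.37 in the uncut samples, a log2 fold change of -2.40 ± 0.32 (SE; adjusted p = 3.3e-05), or 5.29-fold lower. The T-box gene bi measured -1.36, -1.82 and -0.92 in the cut samples, against 0.61, -0.05 and -0.03 in the uncut samples, a log2 fold change of -1.55 ± 0.23 (SE; adjusted p = 8.8e-05). The LIM-homeodomain gene ap, active in a distal leg segment, measured -1.79, -1.68 and -1.95 in the cut samples, against -0.69, -0.59 and 0.44 in the uncut samples, a log2 fold change of -1.53 ± 0.28 (SE; adjusted p = 0.00071). Every cut sample lay below every uncut sample in these genes. The tarsal genes B-H2 and bab1 fell by 1.46 and 1.25 (adjusted p = 0.0115 and 0.0013), and the Hox gene Scr, which specifies the prothoracic segment, had a log2 fold change of 0.01 (adjusted p = 0.976). The Wnt ligand genes Wnt2 and Wnt4 fell by 0.99 and 0.80 (adjusted p = 0.0134 and 0.004), while the receptor gene fz did not pass. Of 7 Notch genes 1 fell, Su(H), the pathway's DNA-binding factor, by 0.44 (adjusted p = 0.0225). Calls were lost without cut or uncut replicate 3 for B-H2, without cut replicate 1 or uncut replicate 3 for Wnt2, and without cut replicate 1, 2 or 3 or uncut replicate 3 for Su(H).

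**Figure D3:**
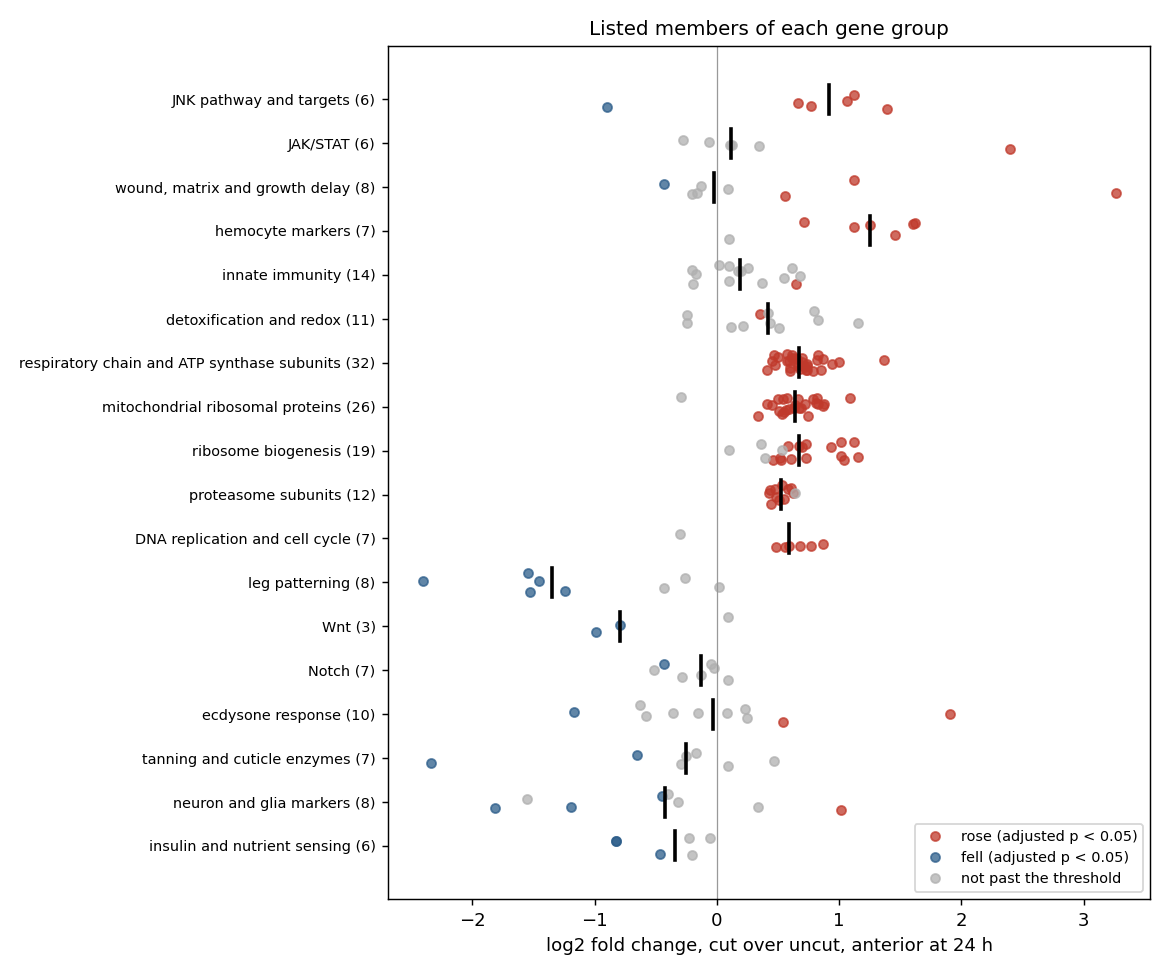
Log2 fold change, cut over uncut anterior at 24 h, of the listed members of 18 gene groups, with their number in parentheses and a black bar at the median. Red points rose and blue points fell at an adjusted p under 0.05, and grey points did not pass.

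The remaining large falls included genes of several functions. Gld, a glucose dehydrogenase, measured -2.71, -2.48 and -3.07 in the cut samples, against 0.00, -0.54 and -0.70 in the uncut samples, a log2 fold change of -2.34 ± 0.30 (SE; adjusted p = 2e-05). CG13857 measured -1.50, -2.27 and -2.33 in the cut samples, against -0.35, 0.12 and 1.40 in the uncut samples, the largest fall among the named members, at -2.43 ± 0.45 (SE; adjusted p = 0.00078). The fatty acid elongase gene Elovl7 fell by 2.39 (adjusted p = 0.0041), the mucin gene Muc91C by 2.01 (adjusted p = 0.00088) and the homeodomain gene lbl by 1.86 (adjusted p = 0.0014). The Senseless-family zinc finger gene sens-2 fell by 1.75 (adjusted p = 0.00011). Among the rises outside these lists, CG17108 reached 2.91 (adjusted p = 0.0009) and Miox, a myo-inositol oxygenase, 1.86 (adjusted p = 0.0045). The lipocalin gene Karl rose by 1.58 (adjusted p = 0.00096) and Idgf1, a chitinase-like growth factor gene, by 1.44 (adjusted p = 0.0034). Idgf1 lost its call with the hybridization controls as a covariate (adjusted p = 0.052). Miox was far above its uncultured level of -3.19, -3.24 and -3.26 in both 24 h groups, at 3.27, 2.26 and 2.69 in the cut samples, against 1.27, 0.34 and 1.03 in the uncut samples.

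Hormone and nutrient genes were mixed. Of 10 listed ecdysone response genes 2 rose and 1 fell, and 1 rose without cut or uncut replicate 2. The first listed probe set of Eip75B had a log2 fold change of 0.25 (adjusted p = 0.655). Another listed probe set of Eip75B rose by 0.43 (adjusted p = 0.0485). ImpE1, an ecdysone-inducible gene of disc morphogenesis, measured 0.02, -0.12 and -0.90 in the cut samples, against -2.18, -2.03 and -2.51 in the uncut samples, and 2.53, 2.57 and 2.73 in uncultured regions. Its log2 fold change was 1.91 ± 0.24 (SE; adjusted p = 2.2e-05), so the cut samples lay between the uncut cultured and the uncultured ones. The nuclear receptor gene ftz-f1 measured -0.20, -0.02 and 0.15 in the cut samples, against 0.91, 1.31 and 1.20 in the uncut samples, a log2 fold change of -1.17 ± 0.18 (SE; adjusted p = 0.00013). Of 6 insulin and nutrient-sensing genes 3 fell: SNF4Agamma, an AMP-activated kinase subunit, by 0.83 (adjusted p = 0.00015), REPTOR, a transcription factor held back by TORC1, by 0.83 (adjusted p = 0.00031) and the insulin receptor gene InR by 0.47 (adjusted p = 0.0375). The call of InR was lost whichever replicate was left out. The glycolytic gene Pfk fell by 0.84 (adjusted p = 3.3e-05).

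Of 14 listed innate immunity genes 1 rose in the anterior at 24 h, PGRP-SA, a Toll pathway recognition protein, with 5.59% of all probe sets called higher. In the posterior at 24 h 13 rose (4.78% called higher, 9.77% in either direction), and in the anterior at 12 h 11 rose (3.15% called higher, 8.77% in either direction). Of 11 detoxification and redox genes 1 rose in the anterior at 24 h, the mitochondrial superoxide dismutase gene Sod2, against 10 in the posterior at 24 h and 7 in the anterior at 12 h. A share of 1 gene in either list is near that of all probe sets. It is below that of the named listed genes, of which 532 of 1341 rose. Log2 fold changes were positive in 11 of the 14 immune and 9 of the 11 detoxification genes (medians 0.19 and 0.42). Members were listed through an overall test over the 4 cut comparisons. A listed gene that changed little here therefore changed in another comparison, so these counts alone do not show that the effects differ. The difference of the effects was past the threshold against the posterior for 2 immune and 0 detoxification genes, and against 12 h for 4 and 2 genes. Over all probe sets 0.121% differed from the posterior effect and 2.15% from the 12 h effect. Among the 1341 named listed genes 17 and 212 did, so these counts too are a description. PGRP-SA measured 0.54, 0.81 and 1.34 in the cut samples, against 0.22, 0.05 and 0.48 in the uncut samples, and its call was lost without cut replicate 2 or 3 or uncut replicate 1 or 2. That of Sod2 was lost without cut or uncut replicate 2.

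The 24 h anterior effect differed from the 24 h posterior effect at 23 of all probe sets (0.121%; 1290 at an unadjusted p under 0.05). The effect was higher in the anterior at 13 of them (0.0686%) and lower at 10 (0.0528%). The count ranged between 2, without cut 24 h anterior replicate 1, and 102, without uncut 24 h posterior replicate 2, and stayed within 1.5 times only without uncut 24 h anterior replicate 3. PGRP-SA rose by 0.65 in the anterior and 2.72 in the posterior, a difference of -2.07 ± 0.27 (SE; adjusted p = 0.0011). The HMG-box gene Sox21b rose by 0.89 in the anterior and fell by 1.12 in the posterior, a difference of 2.02 (adjusted p = 0.0123). The gene sosie fell by 2.13 in the anterior, against a log2 fold change of 0.04 in the posterior, a difference of -2.17 (adjusted p = 0.0265). The difference of Sox21b lost its call without cut 24 h anterior replicate 1. That of sosie lost it without cut anterior replicate 1 or 2, uncut anterior replicate 2, cut posterior replicate 2 or 3, or uncut posterior replicate 1 or 3.

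Against the 12 h anterior effect, 407 probe sets differed (2.15%; 2613 at an unadjusted p under 0.05), 302 with the higher (1.59%) and 105 with the lower effect (0.554%) at 24 h. The count fell to 170 without cut 12 h replicate 3, 174 without uncut 12 h replicate 1, 188 and 222 without cut 24 h replicates 2 and 1, and 243 and 266 without uncut 24 h replicates 1 and 2. CG14598 rose by 1.84 at 24 h and fell by 2.74 at 12 h, a difference of 4.58 ± 0.38 (SE; adjusted p = 1.2e-07). The stress peptide gene TotM had a log2 fold change of -0.20 at 24 h and 4.23 at 12 h (difference -4.44, adjusted p = 0.0058), and its 24 h cut samples spread widely, at -1.13, -1.22 and 2.33. The metallothionein gene MtnA gave 0.21 at 24 h and 3.06 at 12 h (adjusted p of the difference = 0.0091). Of the 32 respiratory chain genes, 20 had a higher effect at 24 h than at 12 h and 0 a lower one. Among the 1341 named listed genes 152 had a higher one. The list was chosen after the values were seen and its members through a test that includes both effects, so this count is no support. The mean of the 32 genes was 0.05 in cut 12 h and 0.13 in cut 24 h samples. In uncut samples it was -0.10 at 12 h and -0.57 at 24 h.

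**Figure D4:**
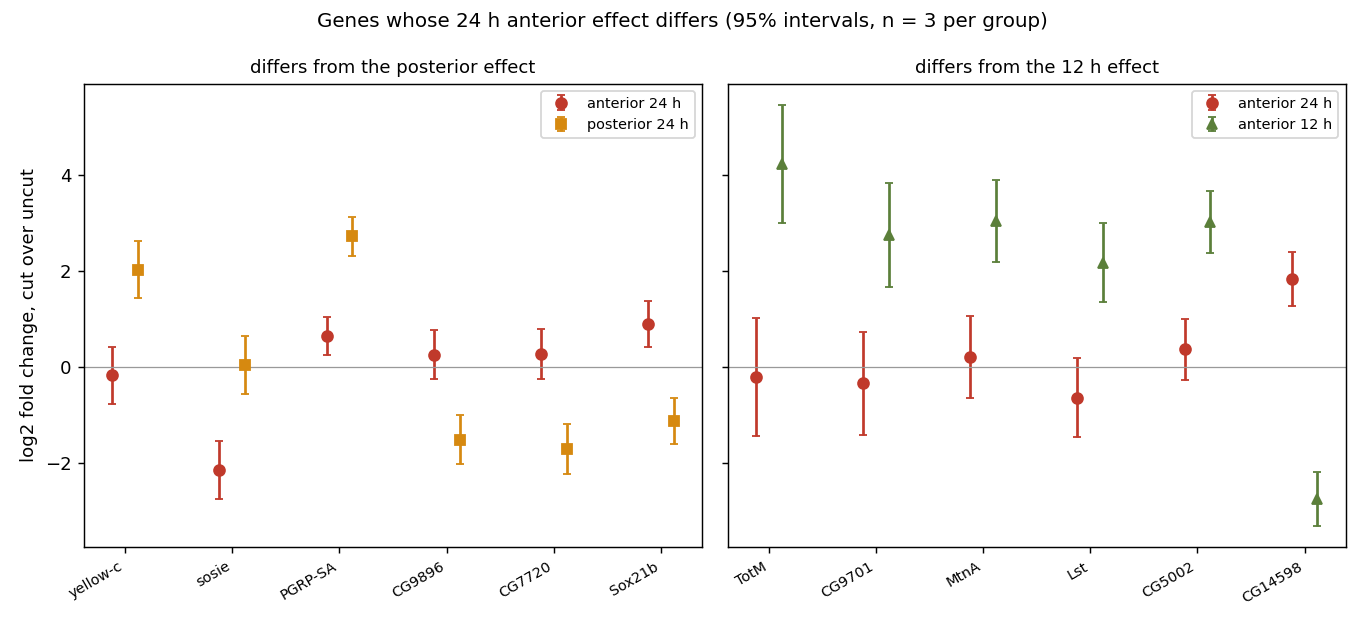
Log2 fold change of cut over uncut with 95% intervals (n = 3 per group) for the 6 genes with the largest called difference from the posterior effect and the 6 from the 12 h effect. TotM, CG9701, MtnA, Lst and CG5002 lay above 2 at 12 h and between -0.64 and 0.37 at 24 h.

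The authors' k-means clusters divided the members by their pattern over the 4 cut comparisons, so they are a description. Cluster II held 590 probe sets, 486 of which rose in the anterior at 24 h (median 0.59), and cluster IV held 637, 297 of which fell (median -0.39). Cluster I (158 probe sets, median 0.62) had 75 rises and 4 falls, and cluster III (95, median -0.56) had 2 rises and 42 falls. Of 41 genes with several listed probe sets, 30 had the same call on all of them, 11 had called and uncalled ones, and 0 had a rise and a fall.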

How the data were processed

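Biotinylated cRNA from a 2-round amplification was hybridized to Affymetrix arrays, per the labels' protocols. RMA and limma are named in the submitters' processing notes, and versions, build and probe annotation are not given in the sources used here. The deposited values are log2 signals centred on each probe set's mean over 30 arrays (base 2 taken from RMA). The deposited tables give the authors' log2 fold changes and an overall adjusted p-value, and list probe sets with that p-value under 0.001, so a gene absent from them is not listed, not unchanged.

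The 10 group means were fitted with limma 3.58.1 in R 4.3.3 over all 18952 probe sets, 183 control probe sets included. The fold changes equalled the authors' to within 1e-08. P-values were adjusted by Benjamini-Hochberg over all probe sets, with 0.05 as the limit. The labels call the samples biological replicates. Alternatives were other normalizations, array weights, covariates, a replicate block and leaving out replicates.

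Genes were named from the deposited tables, with symbols updated through RefSeq (20 names unmatched). The rule named the 15 largest rises and falls, at most 4 called members of each list and the 6 largest called differences from each other effect. Centred values hold no level, so for genes with several probe sets the first in the authors' table was used in place of the brightest. The members and lists were chosen with earlier results of these data known, and 5 lists were added after seeing values.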

Additional observations from a re-analysis of the deposited data

Results flagged for a closer look

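The effect of cutting in the anterior at 24 h was set against the effect in another region or at another time with a test of the difference itself (limma, Benjamini-Hochberg over all probe sets), and the named genes past an adjusted p of 0.05 are given here. Differences are of log2 fold changes, 24 h anterior minus the other effect, each with 3 samples per group. No explanation of them was tested.

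Against the posterior at 24 h, the effect was higher in the anterior for CG7720 by 1.98, CG9896 by 1.77 and Sox21b by 2.02. It was lower for PGRP-SA (-2.07), sosie (-2.17) and yellow-c (-2.20). Adjusted p-values ranged from 0.0011 to 0.038. Of these differences, that of CG9896 lost its call under 14 alternatives, yellow-c under 12, CG7720 and sosie under 10 each and Sox21b under 3.

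Against 12 h, the effect at 24 h was higher in the anterior for CG14598 by 4.58, Miox by 2.52, CG9896 by 2.32, CG7720 by 1.82, Ppn by 1.49 and Sox21b by 1.43. Higher effects were also measured for Sr-CI by 1.35, ATPsynepsilonL by 1.17, COX8 by 0.71, RpL34a by 0.70, PCNA by 0.66 and Cyt-c-p by 0.66. Smaller positive differences were measured for COX5B (0.65), Act5C (0.64), RnrS (0.58) and Tim8 (0.56). The effect was lower at 24 h for TotM (-4.44), CG9701 (-3.09), MtnA (-2.84), Lst (-2.81), CG5002 (-2.65), yellow-c (-1.62), bt (-1.51), PGRP-SA (-1.45) and ftz-f1 (-1.21). Adjusted p-values ranged from 1.2e-07 to 0.049. Alternatives were run only for the 6 largest of these differences, those of CG14598, TotM, CG9701, MtnA, Lst and CG5002. Among these, the call was lost under 8 alternatives for CG9701 and under 1 each, the fit on only the groups of the contrast, for MtnA and TotM. Whether the other differences from 12 h hold under the alternatives was not tested.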

How the results depend on the processing

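Of 108 results of named genes, 73 stayed past the threshold under every alternative run and 0 changed direction, and the others lost the call under at least 1 alternative. The count of probe sets called in the 24 h anterior comparison stayed within 1.5 times under the other normalizations and array weights. It was 184 (101 higher, 83 lower) with a limit of 2-fold added. With the hybridization controls as a covariate the count was 1139 (749 higher, 390 lower), and with the 5' minus 3' index 1812 (1299 higher, 513 lower). Of the 108 named results, 24 lost the call with only the groups of each contrast, 20 with the hybridization controls and 6 with the index. Leaving out each replicate gave 841 to 1582 calls, 555 to 938 higher and 286 to 644 lower. With only the 6 arrays of the contrast, the count was 1111 (735 higher, 376 lower).

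The difference from the posterior effect was the least stable: 2 to 102 probe sets (1 to 59 higher, 1 to 43 lower) with a replicate left out, 40 (23 and 17) with array weights, 14 (5 lower) with robust moderation, 9 (5 and 4) with the hybridization controls as a covariate, 5 lower with the 5' minus 3' index as a covariate and 7 higher with only the groups of the contrast. The difference from 12 h gave 170 to 524 (115 to 405 higher, 55 to 121 lower) with a replicate left out, 653 (520 higher) with the index, 256 (179 higher) with the hybridization controls, 269 (174 higher) with only the groups of the contrast and 163 lower after quantile normalization. The cause was not tested.

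Same-numbered cut and uncut 24 h anterior samples showed no pairing (correlations of deviations from the group means of -0.03, -0.07 and 0.09). Pairing between anterior and posterior samples, or between 12 h and 24 h samples, was not checked. With the replicate block the counts were 1750, 21 and 460. The robust moderation, the 2 covariates and the fit without control probe sets were chosen after seeing the data. The filter on dim probe sets and the trend in the moderation were not run, since centred values hold no level. The number of arrays limits the precision.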
